A study of Mus musculus with 4 samples.

Results

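Scn2a, the gene of the pore-forming alpha subunit of a neuronal voltage-gated sodium channel, was examined probe set by probe set in sorted mouse bone marrow cells, profiled on 4 Affymetrix arrays. Every probe set whose only gene symbol was Scn2a or its older name Scn2a1 was taken from the table. This gave 14 of the 28939 probe sets tested, all under the current symbol, for 1 of 19938 named genes. The gene was picked because 1 of its probe sets was among the farthest apart between the genotypes, so the difference between knockout and wild type is given below as a description of its probe sets, with no test. On 1 of the 14 probe sets, 10472378, the signal was 26.6-fold higher in the knockout arrays than in the wild-type arrays. The other 13 were below the median of all probe sets on every array and differed by -0.48 to 0.17 on the log2 scale.

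The cells were sorted from bone marrow by the markers Lin- c-Kit+ Sca-1+, abbreviated KLS. Hematopoietic stem cells and early multipotent progenitors fall in this gate. There were 2 arrays of Klf7-/- cells and 2 of Klf7+/+ cells. All came from a C57Bl/6 background and from chimeric mice that carried marrow of both genotypes, established with fetal liver cells. Klf7 is a Kruppel-like zinc finger transcription factor. Neither the age of the mice, nor the number of animals or donor embryos behind an array, nor the part of Klf7 that was deleted is given in the sources used here, so p-values measure only the spread between these arrays, which may be technical.

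In the deposited values, which were already processed, the median intensity over all probe sets tested was 51.01 to 52.27 per array. Klf7 has a single probe set, at log2 levels of 6.59 and 6.18 in knockout, against 5.95 and 6.10 in wild type. It was not lower in the knockout arrays, and whether it lies in the deleted part is not known here. The KLS label was checked against 17 stem and progenitor markers, of which 15 were measured and 12 had a mean above the median of all probe sets. Tek, Slamf1 and Esam were below it. Of 13 mature blood cell markers measured, 6 were also above it, among them S100a9, at 10.40 and 8.02 in knockout, against 8.80 and 10.09 in wild type. Kit, the receptor used in the sort, read 10.12 and 9.92 in knockout, against 9.55 and 9.71 in wild type. The Sca-1 gene Ly6a was not among the probe sets with 1 symbol. The arrays also differed in sex-linked transcripts. Xist, a non-coding RNA made from the inactive X in females, read 11.76 and 11.58 in knockout, against 5.24 and 4.80 in wild type, and the Y-linked Eif2s3y read 2.86 and 2.94 in knockout, against 6.85 and 8.11 in wild type. These transcripts divide the arrays exactly as genotype does, so genotype and what goes with them cannot be told apart in any value below.

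Voltage-gated sodium channels open when the membrane depolarises and carry the inward sodium current that starts an action potential. Their alpha subunits form the pore and the voltage sensors, and small beta subunits modify gating and anchor the channel. The Scn2a product, Nav1.2, is best known from excitatory neurons of the brain, where it sits in the axon initial segment and in unmyelinated axons. In mice Scn2a lies on chromosome 2 in a cluster with the alpha subunit genes Scn1a, Scn3a, Scn7a and Scn9a.

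RefSeq gives Scn2a 2 transcript starts in GRCm38.p6, 47.9 kb apart on the plus strand. The 250 bases before each are shown because Klf7 belongs to a family that binds CACCC boxes and GC-rich elements, and they show where the gene's known transcripts begin. Capitals mark CACCC, searched on both strands as CACCC or GGGTG.
Upstream start, chr2:65620519-65620768: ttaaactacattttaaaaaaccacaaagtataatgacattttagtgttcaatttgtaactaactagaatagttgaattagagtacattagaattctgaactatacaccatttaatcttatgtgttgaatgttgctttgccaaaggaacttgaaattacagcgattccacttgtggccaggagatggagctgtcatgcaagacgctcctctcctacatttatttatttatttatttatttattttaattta
Downstream start, chr2:65668436-65668685: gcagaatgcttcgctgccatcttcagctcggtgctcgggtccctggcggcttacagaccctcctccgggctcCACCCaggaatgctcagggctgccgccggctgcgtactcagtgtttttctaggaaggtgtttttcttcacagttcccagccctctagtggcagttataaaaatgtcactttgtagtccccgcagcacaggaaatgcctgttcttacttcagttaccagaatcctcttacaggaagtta
The upstream window held no match and had a GC content of 29.6%. The downstream window held 1 match, which begins 178 bases before the start, and had a GC content of 53.2%. At least 1 match was present in 17087 of 32851 such windows, or 52.0%, and the median GC content over all windows was 52.4%. A match is a description of these letters and not a binding site.

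Probe set 10472378 had log2 levels of 9.51 and 9.97 in the knockout arrays, against 5.09 and 4.92 in the wild-type arrays. As intensities these are 729 and 1001 in knockout, against 34.0 and 30.3 in wild type. Both knockout arrays lay far above both wild-type arrays, and the lower knockout value was 4.42 above the higher wild-type value. The level averaged 9.74 ± 0.32 in knockout and 5.0 ± 0.12 in wild type (log2, SD, n = 2 each), a difference of 4.73. On the knockout arrays 95.6% and 96.6% of all probe sets tested were dimmer than it, against 33.2% and 27.9% on the wild-type arrays. With each array left out in turn the difference ran from 4.51 to 4.96. Detection calls were not used here, so how far the wild-type values stand above background is not known, and the fold depends on that floor.

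**Figure D1:**
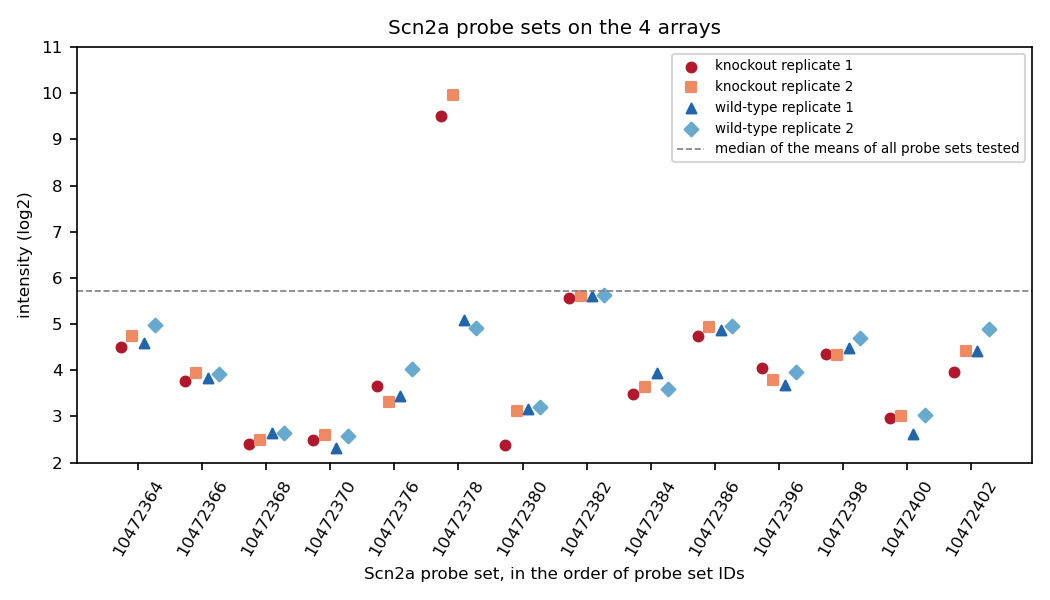
Log2 intensity (vertical axis) of the 14 Scn2a probe sets, in the order of their IDs (horizontal axis). Each point is 1 array; circles and squares are knockout, triangles and diamonds wild type, and the dashed line is 5.71, the median of the mean levels of all probe sets tested. Only at 10472378 do the knockout points, 9.51 and 9.97, stand far from the wild-type points, 5.09 and 4.92.

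The IDs of the 14 probe sets run from 10472364 to 10472402, and 10472378 is the sixth in that order. All 14 are assigned the Scn2a transcript NM_001099298, and the first 2, 10472364 and 10472366, carry 1 further accession. The nearest 5 probe sets with 1 symbol on each side of this run all carry symbols of genes on chromosome 2, which is where Scn2a lies. The probe sequences were not used here, so the exon, intron or UTR that each probe set reads is not stated.

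Beside 10472378 in the ID order, 10472376 read 3.66 and 3.32 in knockout, against 3.44 and 4.03 in wild type. On its other side 10472380 read 2.39 and 3.11 in knockout, against 3.15 and 3.21 in wild type. The first of these pairs of groups overlapped, and the second did not, with knockout lower. Neither neighbour was higher in the knockout arrays.

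The 13 other probe sets lay between 2.39 and 5.60 in knockout and between 2.31 and 5.63 in wild type. Every one of them was below the median of all probe sets on every array, and 11 had a mean among the dimmest 25% of those tested, below 4.75. Per array, 4 and 4 of the 13 in knockout and 3 and 4 in wild type were below the level that 5% of probe sets fail to reach, which was 3.03 to 3.24. Probe sets differ in how strongly they bind, so these levels do not order parts of the transcript.

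Between the genotypes the 13 had a median difference of -0.15, with 3 higher and 10 lower in knockout. That median was -0.02 without wild-type replicate 2, -0.05 without knockout replicate 1, -0.07 with cyclic loess, -0.04 with quantile normalization once more and -0.03 with an offset of 32 added before log2. Over all probe sets the median was -0.03, and 55.7% were lower in knockout; among the dimmest 25% the median was -0.09, and 66.5% were lower. None of the 13 was 2-fold apart. The groups did not overlap in 4 of them, all lower in knockout (10472368, 10472380, 10472398 and 10472402), and in 10472378, higher in knockout, whereas 33.6% of all probe sets did not overlap and 19.6% did not overlap and were lower in knockout. The same contrast chose the gene, and nothing is read from these counts. Only 10472378 of the 14 was at least 2-fold apart without overlap, as were 497 of all probe sets, or 1.72%.

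The largest difference among the 13 was that of 10472402, which read 3.97 and 4.41 in knockout, against 4.42 and 4.90 in wild type. The groups did not overlap, but the gap between them was small, and the arrays of 1 genotype were 0.44 apart in knockout and 0.48 apart in wild type. The largest positive one was that of 10472400, at 2.97 and 3.01 in knockout, against 2.61 and 3.02 in wild type, where the groups overlapped. In 11 of the 13, arrays of 1 genotype were farther apart than the group means. The steadiest was 10472382, which read 5.56 and 5.60 in knockout, against 5.60 and 5.63 in wild type.

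Among the remaining probe sets, 10472364 was at 4.51 and 4.75 in knockout, against 4.59 and 4.97 in wild type. Values for 10472386 were 4.74 and 4.93 in knockout, against 4.86 and 4.95 in wild type. Values for 10472366 were 3.76 and 3.95 in knockout, against 3.83 and 3.91 in wild type. In all 3 the groups overlapped, as they did in the next 3. In 10472370 the knockout arrays read 2.49 and 2.59, against 2.31 and 2.57 in wild type. In 10472384 they read 3.48 and 3.64, against 3.95 and 3.60 in wild type. In 10472396 they read 4.04 and 3.78, against 3.69 and 3.97 in wild type. In the final pair of probe sets, both already named as lower in knockout, the gaps between the groups were small. The knockout arrays read 2.41 and 2.48 in 10472368, against 2.63 and 2.64 in wild type. In 10472398 the values were 4.36 and 4.33 in knockout, against 4.48 and 4.69 in wild type.

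The mean over all 14 was 4.13 and 4.28 in knockout, against 3.90 and 4.07 in wild type, a difference of 0.21. Without 10472378 the mean was 3.72 and 3.84 in knockout, against 3.81 and 4.01 in wild type, so the higher knockout mean of the gene came from that probe set.

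A probe set just outside the rule, 10472372, is assigned to Scn2a, Scn9a and Scn3a together. It read 2.13 and 2.41 in knockout, against 2.35 and 2.25 in wild type. The next, 10472374, is assigned to Scn9a and Scn3a, and read 2.77 and 2.97 in knockout, against 3.01 and 3.27 in wild type. Both lie within the run of Scn2a IDs, and in neither was the knockout mean the higher one.

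How far single probe sets depart from the rest of their gene was described over the 78 genes with at least 5 probe sets, a limit chosen with the values known. In each gene the probe set whose difference lay farthest from the median was set against the median of the others. This distance had a median size of 0.36 on the log2 scale and was over 2 in 4 genes and over 3 in 2 genes. The 78 include ribosomal protein genes such as Rps12, at 0.05, and Rpl23a, at -0.04, whose small distances lower that median. Whether the probe sets of each gene lie in 1 run of IDs, as those of Scn2a do, was not examined. For Scn2a the distance was 4.88, the largest of the 78. Scn2a was picked by this same difference, so its rank is a description only. The next largest distance was that of Dnajc13, an endosomal co-chaperone gene with 15 probe sets, at -3.58. In Dnajc13 the other probe sets themselves ran from -2.98 to 1.36, whereas in Scn2a they stayed within -0.48 to 0.17. Of those 13 in Scn2a, 11 were among the dimmest 25%, and levels were not compared between these genes.

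**Figure D2:**
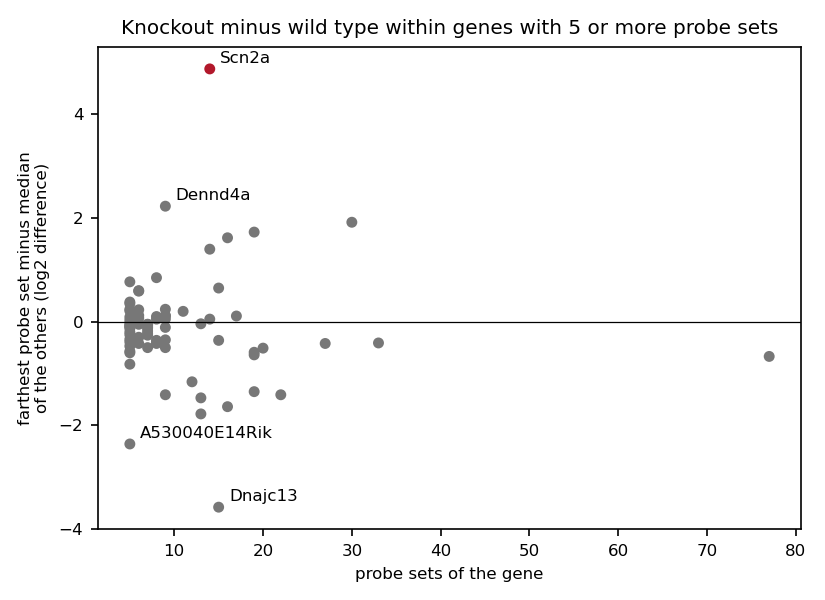
Each point is 1 of the 78 genes with at least 5 probe sets. The horizontal axis gives its number of probe sets, and the vertical axis the knockout minus wild-type difference (log2) of its farthest probe set minus the median of its others. Scn2a, in red, lies at 4.88, and Dnajc13 at -3.58.

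Across the 28939 probe sets tested, 5 had group means at least 4 apart on the log2 scale. Xist, at 6.65, and 10472378 were 2 of the 3 that were higher in knockout. The third, 10381695, has no gene symbol in the annotation and read 7.67 and 7.10 in knockout, against 3.15 and 3.44 in wild type. Of the 2 that were lower, 1 was Eif2s3y, at -4.58, and 10608138 has no symbol.

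The other sodium channel genes were tested in the limma fit over all probe sets, with Benjamini-Hochberg adjustment. Of 10 alpha subunit and related genes listed, 8 were measured, and none passed an adjusted p of 0.05. Of 4 beta subunit genes, 3 were measured, and none passed. Over all probe sets 1 passed, or 0.00346% (0.00502% of named genes by their brightest probe set), and it was Xist. Of the 11 sodium channel genes measured, 0 also had an unadjusted p under 0.05, and the lowest limma adjusted p was 0.953. Across all 28939 probe sets, 1450 had an unadjusted limma p under 0.05. With 2 arrays per group such a p does not show that their levels were equal.

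The alpha subunit genes other than Scn2a, taken with the leak channel gene Nalcn, had no probe set above 5.43 on any array. That value was of Nalcn, and the highest of the alpha subunit genes was 4.69, in Scn9a. None was 2-fold apart. Their 9 probe sets differed by -0.47 to 0.27. Scn3a, the neighbour of Scn2a in the cluster and also an alpha subunit of neurons, read 4.01 and 3.80 in knockout, against 4.12 and 4.09 in wild type. Scn1a, the channel of inhibitory interneurons, read 3.49 and 3.67 in knockout, against 3.49 and 3.62 in wild type. In Scn1a the groups overlapped, and in Scn3a they did not, with knockout lower.

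The end of the range was Scn9a, which carries sodium current in pain-sensing neurons, at 3.79 and 4.47 in knockout, against 4.52 and 4.69 in wild type, a difference of -0.47 ± 0.27 (SE, n = 2 per group). Its second probe set gave -0.29. Scn8a, the channel of mature nodes of Ranvier, read 4.55 and 4.47 in knockout, against 4.50 and 4.37 in wild type. Nalcn, a sodium leak channel, read 5.09 and 5.18 in knockout, against 5.09 and 5.43 in wild type. In Scn8a and Nalcn the groups overlapped, and in this Scn9a probe set they did not, with knockout lower.

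Among the beta subunits, which pair with the alpha subunits, Scn2b read 4.35 and 4.59 in knockout, against 4.31 and 4.67 in wild type. Scn3b read 5.32 and 4.77 in knockout, against 4.69 and 4.87 in wild type. Scn4b read 4.72 and 4.79 in knockout, against 4.60 and 4.78 in wild type. Their differences were -0.03 for Scn2b, 0.26 for Scn3b and 0.07 for Scn4b, and all 3 had a mean below the median of all probe sets.

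**Figure D3:**
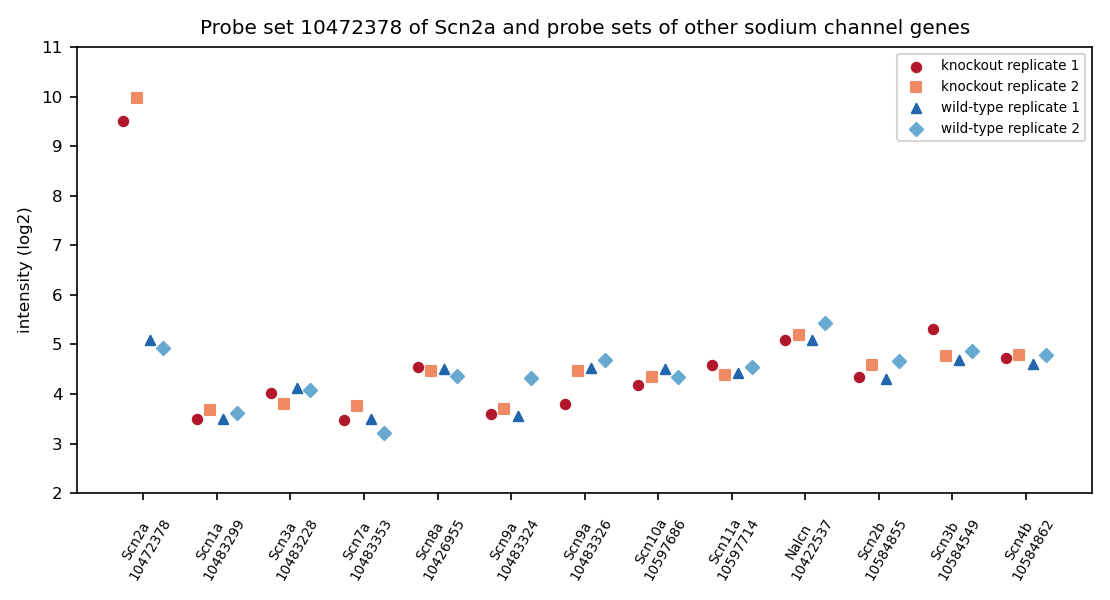
Log2 intensity (vertical axis) on each array of probe set 10472378 of Scn2a and of the 12 probe sets of other sodium channel genes (horizontal axis). Circles and squares are knockout, triangles and diamonds wild type. The knockout points of 10472378 stand at 9.51 and 9.97, while no other alpha subunit gene, nor Nalcn, exceeds 5.43 on any array.

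Partners of the channel at the axon initial segment, the stretch of axon where action potentials start, were listed as well. Of 16 genes, 14 were measured and none passed (lowest limma adjusted p 0.96). None had an unadjusted limma p under 0.05, against 1450 of all 28939 probe sets. Their differences ran from -0.17 to 0.13, with a median of 0.00. Ank3 encodes ankyrin-G, the scaffold that holds sodium channels in place, and read 4.48 and 4.48 in knockout, against 4.49 and 4.77 in wild type. Fgf13, which binds the channel's cytoplasmic tail, read 5.03 and 5.12 in knockout, against 5.07 and 5.07 in wild type. In Ank3 both knockout values were just under the lower wild-type value, and in Fgf13 the groups overlapped. Groups did not overlap in 5 of the 14, all lower in knockout, against 33.2% of all genes in either direction.

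Markers of neurons, the cells in which Scn2a is best known, gave no gene past the threshold. Of 20 listed, 20 were measured and none passed in the limma fit (lowest adjusted p 0.945). In that fit 1 had an unadjusted p under 0.05, against 1450 of all 28939 probe sets. The median difference was -0.03, and 3 of the 20 had a mean above the median of all probe sets. Their summed intensity was 733 and 753 in knockout, against 771 and 761 in wild type. Rbfox3, the neuronal nuclear antigen gene, read 5.17 and 5.21 in knockout, against 5.18 and 5.32 in wild type, and Snap25, a synaptic fusion protein gene, read 4.77 and 5.39 in knockout, against 4.94 and 5.15 in wild type. Of the 20, 7 were higher and 12 lower in knockout. Groups did not overlap in 2 higher and 6 lower ones, against 33.2% of all genes in either direction. Map2, at -0.42, had the unadjusted limma p under 0.05 (0.0484), and Tubb3, at 0.45, was farthest the other way. The neuronal sum was no higher in the arrays where 10472378 was high. Most of these markers lay below the median of all probe sets. The part of neurons in the difference of 10472378 was not tested.

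Of 11 markers of glia, 9 were measured, none passed (lowest limma adjusted p 0.957, and 0 with an unadjusted p under 0.05), and the summed intensity was 422 and 454 in knockout, against 393 and 491 in wild type. Of 16 markers of mature blood cells, 13 were measured and none passed (lowest limma adjusted p 0.945, and 1 with an unadjusted p under 0.05). That 1 was Elane, which read 5.04 and 5.41 in knockout, against 6.83 and 5.75 in wild type. It alone of the 13 was 2-fold apart without overlap, against 1.72% of all probe sets. Of the 13, 5 were higher and 7 lower in knockout. The summed intensity of the mature blood markers was 2911 and 1146 in knockout, against 1629 and 2086 in wild type. Among these markers the granulocyte genes S100a8 and S100a9 differed most between arrays of 1 genotype. The knockout arrays were 2.05 apart in S100a8 and 2.38 apart in S100a9 on the log2 scale. The part of these markers in the difference of 10472378 was not tested. For the KLS markers the sum was 6521 and 6668 in knockout, against 5335 and 4911 in wild type. Of the 15 KLS markers, 11 were higher and 4 lower in knockout. Groups did not overlap in 9 higher and 2 lower ones, against 33.2% of all genes in either direction. None passed (lowest limma adjusted p 0.945, and 2 with an unadjusted p under 0.05). For comparison with these lists, 1450 of all 28939 probe sets had an unadjusted limma p under 0.05. The sum of the KLS markers, weighted towards bright genes such as Cd34 and Kit, moved with 10472378. The part of this sum in the difference of 10472378 was not tested. In sorted bulk cells, fewer cells of a type and less RNA per cell cannot be told apart.

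Genes next to Scn2a on chromosome 2 did not share the gap of 10472378. Of the 5 on each side that have a probe set of their own in the RefSeq gene table's order, 10 were measured and none passed (lowest limma adjusted p 0.955). None had an unadjusted limma p under 0.05, against 1450 of all 28939 probe sets. Csrnp3, the next gene on the far side from Scn3a, read 4.95 and 5.22 in knockout, against 5.21 and 5.13 in wild type. Cobll1 read 7.13 and 7.13 in knockout, against 7.24 and 7.13 in wild type. Only Scn3a of these 10 did not overlap between the groups, against 33.2% of all genes. Among the 10 nearest probe sets in ID order, Gca, a calcium-binding protein gene and the last before the run, read 4.77 and 4.37 in knockout, against 6.84 and 6.02 in wild type. That difference of -1.86 ± 0.33 (SE, n = 2 per group) ran the other way from 10472378. In the limma fit it had an unadjusted p of 0.00319 and an adjusted p of 0.945. Of these 10 in ID order, 2 did not overlap between the groups, against 33.6% of all probe sets. They were Gca and Xirp2, the latter higher in knockout.

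The likeness of other probe sets to 10472378 was measured as the root mean square distance between log2 values over the 4 arrays, after subtraction of each probe set's own mean. A flat profile would lie 2.37 away, and the median over all other probe sets with 1 symbol was 2.39. The nearest was Xist, at 0.99. Next were Gm10644 at 1.26, the myotubularin-related gene Mtmr9 at 1.29, the peptide transporter gene Slc15a2 at 1.33 and Zfp931 at 1.34. They were followed by Mrs2, a mitochondrial magnesium channel gene, at 1.38, both probe sets of Uxt at 1.43 and 1.46, Ccdc137 at 1.46 and Ltn1, a ubiquitin ligase of ribosome quality control, at 1.47. These were chosen by the values themselves and are given as a description over 4 arrays.

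Xist shared the close pairs and the wide gap of 10472378, with a larger difference of 6.65. Mtmr9 read 8.70 and 8.82 in knockout, against 6.66 and 6.54 in wild type, a difference of 2.16. Slc15a2 read 6.32 and 6.90 in knockout, against 4.43 and 4.60 in wild type, with a difference of 2.10. Arrays of a genotype were 0.12 and 0.11 apart in Mtmr9, whereas the knockout arrays were 0.59 apart in Slc15a2. Both log2 differences were smaller than that of 10472378. In Uxt the knockout arrays were 1.57 and 1.52 apart on its 2 probe sets, and in Gm10644 the wild-type arrays were 1.95 apart. The Zfp931 wild-type values, 2.59 and 2.01, lay at the floor of the arrays.

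Some of these genes also have probe sets that disagree. Ltn1, with 16 probe sets, had differences from -0.61 to 1.94, Mtmr9 from 0.53 to 2.16 over 2, and Mrs2 from 0.03 to 2.19 over 2. Both Uxt probe sets gave similar differences, 2.26 and 2.18. Of the 10 probe sets nearest in pattern, 3 carry symbols of genes on the X chromosome (Xist and both of Uxt). Zfp931 is a gene on chromosome 2. These are the places of the genes, and where each probe set itself lies was not looked up. The Uxt probe sets, 10458428 and 10432509, lie far from Xist, 10606178, in ID order.

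**Figure D4:**
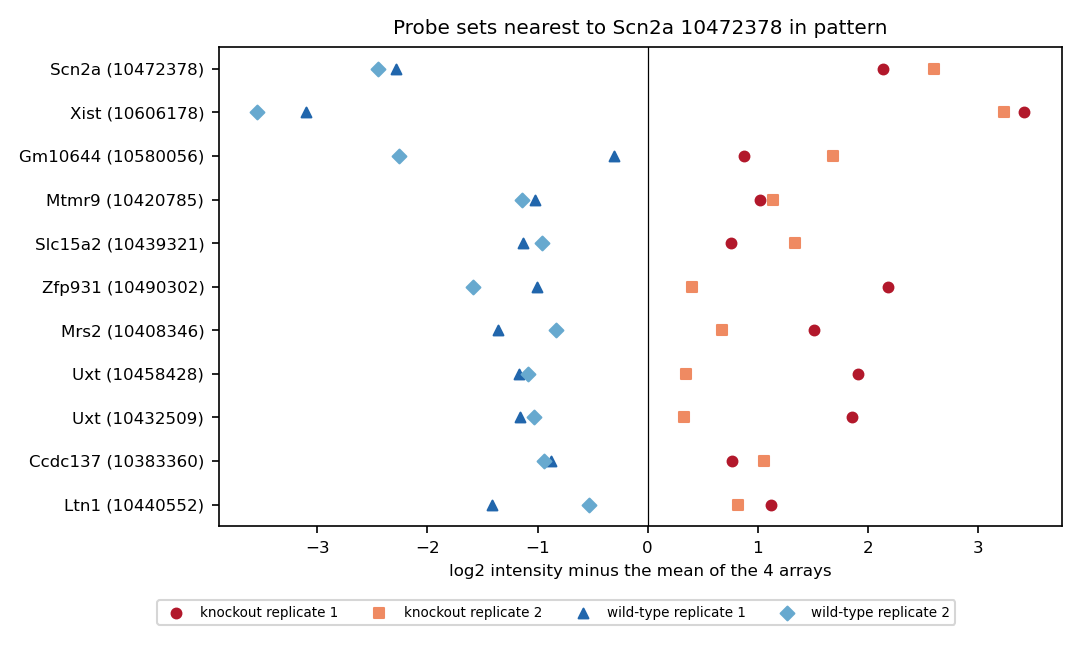
Log2 intensity minus the mean of the 4 arrays (horizontal axis) for probe set 10472378 of Scn2a, at the top, and the 10 nearest probe sets, in order of distance from 0.99 to 1.47. Circles and squares are knockout, triangles and diamonds wild type. Xist has the wider gap, and the wild-type arrays of Gm10644 lie 1.95 apart.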

How the data were processed

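KLS cells were profiled on 4 arrays, 2 knockout and 2 wild type by their titles. RNA was amplified with the NuGen Ovation System, per the labels' protocols. The authors deposited 1 intensity for each probe set on each array. For how it was made, the submitters' processing notes name RMA and Affymetrix Expression Console, with no version or setting. Values reached 17720.8, so they were read as linear and log2 was taken, with no further normalization. The first 6615 of 35554 probe sets, which precede the first annotated one, were taken to be controls and left out. The platform annotation gave 1 symbol for 21789 probe sets, several for 1621, and 5529 were unlisted; 21698 were matched to RefSeq (GRCm38.p6) for current symbols and chromosomes. Knockout was compared with wild type by limma 3.58.1 in R 4.3.3 (lmFit, eBayes, two-sided, Benjamini-Hochberg adjustment over 28939 probe sets). A listed gene was represented by its brightest probe set. The steps were tested on simulated data. There the fit called 0 of 670 changes of 2-fold, 24.6% of those of 4-fold and 67% of those of 16-fold. Each of 10 simulations held 200 changed probe sets, with the spreads shuffled across probe sets. In the data 1 probe set passed, so the adjusted cut was stricter there, and these shares may be too high for the data. A gene that did not pass may therefore still differ. Precision is limited by the number of arrays.

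Genes were named by fixed lists (sodium channel subunits, channel partners, cell type markers), by place (5 neighbours on each side on the chromosome and in ID order) and by pattern (10 nearest probe sets), with Klf7 and the sex-linked genes. Probe sets at least 4 apart and genes with 5 or more probe sets were chosen after the values were seen. The gene, the lists and the tests were chosen with earlier results of these data known. Alternatives were 2 other normalizations, an offset of 32, a filter on dim probe sets, other variance models, the replicate block, each array left out, the leading probe sets kept, the mean of a gene's probe sets and a 1.5-fold threshold.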

Additional observations from a re-analysis of the deposited data

How the results depend on the processing

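Probe set 10472378 was at 4.51 to 4.96 with each array left out, 4.71 with cyclic loess, 4.74 with quantile normalization once more, 4.73 with the replicate block and 3.79 with the offset of 32, which damps dim values. The mean over the 14 probe sets was 0.13 to 0.30 under the same alternatives. The median of the other 13, -0.15, stayed below 0 but was -0.07 with cyclic loess, -0.04 with quantile normalization once more, -0.03 with the offset and -0.17 to -0.02 with an array left out; the cause was not tested. The median of all probe sets moved by less than 0.1 in all of these. The limma count of 1 probe set, Xist, was 1 with cyclic loess and with the filter on dim probe sets, and 0 with quantile normalization, the offset, an intensity trend with or without robust estimation, the leading probe sets kept, and each array left out (0 to 0; the fit then takes the spread of the single array from the other genotype). With the replicate block it was 0. Equal numbers are not said to share a mouse, and deviations of same-numbered arrays correlated at 0.0434 across probe sets. No sodium channel gene passed in any of the alternatives run for this count, although only 2 remained under the dim filter. The 497 probe sets 2-fold apart without overlap became 187 with the offset, 850 to 1000 when 1 array was omitted (fewer arrays overlap less often), 1491 with the leading probe sets kept and 1639 at 1.5-fold. Signal over background was not used, so the dim end is limited by the floor of the arrays.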
